A study of Mus musculus with 12 samples.

Results

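Clotting in the mouse liver was followed through 10 genes: prothrombin (F2), coagulation factors V, VII, IX, X, XI and XII (F5, F7, F9, F10, F11 and F12) and the α, β and γ chains of fibrinogen (Fga, Fgb and Fgg). They were picked by name as liver-made members of the cascade. The rule uses no measured value, but earlier results of these data were known when it was set. All 10 were among the 48526 rows of the deposited table of CPM (reads of a gene scaled to a common library total), and all 10 were among the 11968 genes that passed the filter on low counts and were tested. The livers came from female and male mice of the inbred strain C57BL/6J that ate chow, without or with simvastatin at 0.1 g/kg, over 4 weeks. Simvastatin blocks HMG-CoA reductase, the enzyme that limits cholesterol synthesis. The sample labels give the dose per body weight and the study's methods give it per food weight. The labels name 1 diet formulation for all groups, chow included, which the methods name only for the simvastatin diet, so that the chow groups are taken as controls from their treatment label. There were 12 livers from different mice, 3 each for females on chow, females on statin, males on chow and males on statin. No group carried a transgene or a deletion, the methods place the start of the diets in young adulthood, and the labels give no age.

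Hepatocytes make nearly all of the circulating clotting proteases as inactive precursors, which activate one another in sequence on a phospholipid surface. Factor VII with tissue factor starts the cascade, factors XII, XI and IX feed the intrinsic branch, factor X with its cofactor factor V cleaves prothrombin to thrombin, and thrombin turns fibrinogen into fibrin. Prothrombin and factors VII, IX and X need a vitamin K-dependent modification before secretion, and the fibrinogen chains are classical acute-phase transcripts that respond to interleukin-6.

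The libraries held between 46066381 and 60419223 reads on genes per liver, and levels below are CPM after TMM normalization, which scales each library by a trimmed mean of log ratios to the others. The livers expressed the hepatocyte markers: 7 of 8 were matched, all 7 were tested, and albumin (Alb) lay between 54598 and 133172 CPM. Of 10 platelet markers 2 passed the filter, and the sum of all 10 lay between 5.72 and 20.5 CPM. The livers differed in how expression trended with transcript length, from -0.46 on the log2 scale per 10-fold of exon length in female statin liver 1 to 0.47 in male statin liver 1, and both extremes lay in statin groups.

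The 3 fibrinogen genes sit together on chromosome 3 of GRCm38 within 42140 bases. Fgg lies at chr3:83007724-83015049 and Fga at chr3:83026076-83033627 on the plus strand, and Fgb at chr3:83040141-83049863 on the minus strand. F7 (chr8:13026034-13035809) and F10 (chr8:13037308-13056676) are neighbours on the plus strand of chromosome 8 with 1498 bases between them, and F11 (chr8:45241174-45262031, minus strand) is on the same chromosome. The others are F2 at chr2:91625320-91636414 (minus), F5 at chr1:164151838-164220277 (plus), F12 at chr13:55417958-55426793 (minus) and the X-linked F9 at chrX:59999464-60030759 (plus). All 10 are protein-coding, and each count is the sum over the exons of the gene. An annotated gene on the opposite strand, Gm30097, overlaps Fgg, and Gm16548 (opposite strand) and Gm16588 (same strand) overlap F5. Reads in the shared stretches of these genes may thus be left uncounted or assigned to either. The strand setting used for counting is not given in the sources used here.

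RefSeq promoter sequences (GRCm38.p6) matched all 10 genes. Printed below, 5′ to 3′ on the strand of the gene, are up to 150 bases before the RefSeq start of the fibrinogen cluster, where 2 of the 3 genes carried a sex call over both diets, and of the neighbours F7 and F10, the factor genes whose levels separated the sexes. Fga is cut short where GENCODE places an earlier start, 77 bases before that of RefSeq. The intervals are chr3:83007574-83007723 (Fgg), chr3:83026003-83026075 (Fga), chr3:83049864-83050013 (Fgb, minus strand), chr8:13025884-13026033 (F7) and chr8:13037158-13037307 (F10). Capitals mark the core of the interleukin-6 response element (CTGGGA, or CTGGGAA where the next base fits) and, on its reverse strand as ATTAAC, the half-site of the hepatocyte factor HNF1 (GTTAAT).
Fgg: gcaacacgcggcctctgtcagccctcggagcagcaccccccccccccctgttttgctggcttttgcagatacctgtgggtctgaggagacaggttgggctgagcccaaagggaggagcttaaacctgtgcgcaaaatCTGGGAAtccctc
Fga: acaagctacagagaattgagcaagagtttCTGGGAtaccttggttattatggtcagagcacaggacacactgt
Fgb: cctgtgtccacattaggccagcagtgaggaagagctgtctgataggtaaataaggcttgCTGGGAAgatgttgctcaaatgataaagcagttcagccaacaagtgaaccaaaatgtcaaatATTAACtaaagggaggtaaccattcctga
F7: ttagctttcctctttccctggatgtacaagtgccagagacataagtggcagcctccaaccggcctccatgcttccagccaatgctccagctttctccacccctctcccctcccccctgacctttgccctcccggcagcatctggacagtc
F10: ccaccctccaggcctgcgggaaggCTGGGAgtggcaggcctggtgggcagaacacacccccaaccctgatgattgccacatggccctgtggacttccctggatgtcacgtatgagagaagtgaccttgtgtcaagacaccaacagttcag

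Both strands of the 250 bases before each start were searched. CTGGGA occurred in 5 of the 10 promoters (Fgg, Fga, Fgb, F10 and F9) and in 27.0% of all 32851 promoters. The longer CTGGGAA, which contains it, occurred in 3 (Fgg at -13 to -7, Fgb at -91 to -85 and F9 at -82 to -76, counted back from the base before the start) and in 9.10% of all promoters. GTTAAT occurred in Fga (-43 to -38, downstream of the GENCODE start and not printed) and Fgb (-29 to -24) and in 6.43% of all promoters. All 3 fibrinogen promoters thus held the short interleukin-6 core, and F2, F5, F7, F11 and F12 held none of the motifs searched. The letters CAAAGTCCA (HNF4), TTNNGNAAT (C/EBP) and TATAAA (the core promoter box) were found in 0 of the 10 windows, against 0.384%, 10.2% and 12.4% of all promoters. A match describes letters in a window and is no evidence of binding, and no match says nothing of the factor.

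Levels between genes were compared per kilobase of exon over the 12 livers. The fibrinogen chains stood highest, with Fgg at 1841 ± 481 CPM per kb (SD, n = 12), Fga at 1645 ± 463 and Fgb at 1143 ± 278. Prothrombin followed at 457 ± 68.0, then F12 at 245 ± 32.1 and F10 at 182 ± 38.6. F9 at 94.5 ± 8.10, F5 at 93.8 ± 32.9, F7 at 65.1 ± 12.1 and F11 at 38.3 ± 7.20 CPM per kb were the lowest. In this order the ranges of neighbours did not overlap between Fgb and F2, between F2 and F12 and between F10 and F9, and all other neighbours overlapped. F9 varied least over the livers, by 1.33 times from the lowest to the highest, and F5 varied most, by 2.84 times.

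**Figure D1:**
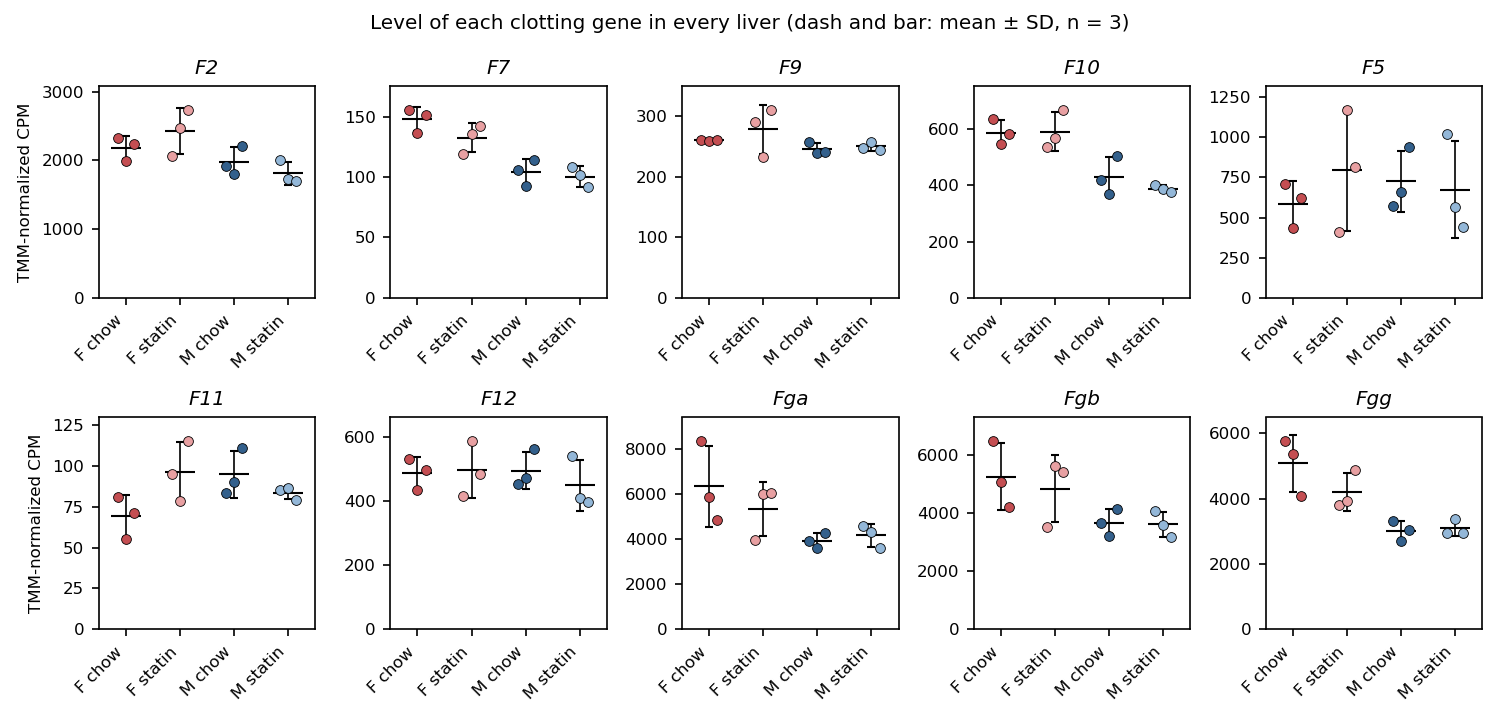
Level of each of the 10 genes (vertical axes from 0, TMM-normalized CPM) in every liver, by group on the horizontal axis, where points are livers and dashes with bars are the mean ± SD of 3. Every female liver lies above every male liver for F7, F10 and Fgg, and no statin group is separated from the chow group of its sex.

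The first question was whether 4 weeks of simvastatin moved these transcripts in either sex. No gene of the 10 was called at an adjusted p under 0.05 in females (0 of 10, against 0.1% of all genes tested, in either direction) or in males (0 of 10, against 0.0%), and no difference of the response between the sexes was called (0 of 10, against 0.0%). DESeq2 also called 0 of the 10 in each of these comparisons. At an unadjusted p under 0.05 edgeR had 1 of the 10 in females (F11), 0 in males and 1 in the difference of the responses (again F11), where 1256, 234 and 959 of the 11968 genes tested were under it, so that F11 in females is about the share of all genes. Statin and chow livers overlapped for all 10 genes in both sexes, while 1437 of the 11968 genes tested (12%) did not overlap in females and 7.95% in males. The median log2 fold change of the 10 was 0.017 in females and -0.077 in males, beside 0.013 and 0.0036 over all genes tested. In pieces of whole liver fewer cells of a type and less RNA per cell cannot be told apart, here and in all comparisons below.

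Among the vitamin K-dependent precursors, F2, the precursor of thrombin, read 2324, 1999 and 2238 CPM in chow females and 2067, 2474 and 2740 CPM in statin females. In males it read 1917, 1801 and 2215 CPM on chow and 2008, 1726 and 1700 CPM on statin. Female statin liver 1 lay inside the chow range and livers 2 and 3 above it, and among males statin livers 2 and 3 lay below all chow livers. The log2 fold change of F2 with statin was 0.15 (95% interval -0.18 to 0.48, adjusted p = 0.864) in females and -0.13 (-0.46 to 0.20, adjusted p = 1.00) in males.

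F7, the protease that tissue factor activates, read 156, 137 and 151 CPM in chow females and 119, 136 and 142 CPM in statin females. Male livers read 106, 92.4 and 114 CPM on chow and 108, 101 and 91.5 CPM on statin. Female statin livers 1 and 2 lay below all female chow livers, the latter closely, and both female groups stayed above all male livers. Its fold change with statin was -0.16 (-0.43 to 0.11, adjusted p = 0.782) in females and -0.05 (-0.32 to 0.22, adjusted p = 1.00) in males. F10, the protease that cleaves prothrombin, read 634, 544 and 580 CPM in chow females, and 534, 566 and 668 CPM in statin females. On chow the males read 419, 368 and 503 CPM, and on statin 400, 386 and 376 CPM. The statin livers lay around the chow range in females and inside it in males, with fold changes of 0.0082 (-0.31 to 0.32) in females and -0.15 (-0.47 to 0.16) in males on the log2 scale.

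F9, the intrinsic-branch protease missing in haemophilia B, read 261, 258 and 261 CPM in chow females and 290, 233 and 311 CPM in statin females. It read 257, 239 and 242 CPM in male chow and 247, 258 and 244 CPM in male statin. The chow females were nearly alike, and the statin females lay on both sides of them and of the males. With statin its log2 fold change was 0.10 (-0.17 to 0.37) in females and 0.02 (-0.25 to 0.29) in males, intervals that were with those of F7 the narrowest of the 10 genes.

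F5, the cofactor of factor X, read 709, 433 and 621 CPM in chow females and 413, 1173 and 812 CPM in statin females. Males read 575, 662 and 939 CPM on chow and 1020, 564 and 441 CPM on statin. Each statin group held both the lowest and the highest liver of its sex, and its intervals were the widest of the 10: 0.44 (-0.38 to 1.27, adjusted p = 0.816) in females and -0.10 (-0.93 to 0.72) in males on the log2 scale. The female change was 0.055 without statin liver 2 and 0.77 without statin liver 1. The liver with the lowest F5 in females (statin 1) had the most negative length trend and the male liver with the highest F5 (statin 1) had the most positive one. Over the 12 livers the deviation of F5 from its group mean correlated with that of the length trend at r = 0.96, and that of F12 at 0.96. The values were 0.76 for Fgb, 0.70 for F2, 0.69 for Fga, 0.67 for F7, 0.39 for F10, 0.09 for F11, 0.03 for Fgg and -0.55 for F9. They did not follow the exon length of the gene, which was 7430 bases for F5, 1960 for F12, 1859 for F7 and 2093 for Fgg. These correlations describe livers that share library and depth with the trend, and the part of the trend in the levels was not tested. An offset for transcript length left both statin comparisons with 0 of 10 called.

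In the contact and intrinsic branch, F11, which activates factor IX, gave the largest statin difference of the 10 genes. It read 80.6, 55.2 and 71.2 CPM in female chow and 94.9, 78.1 and 115 CPM in female statin, against 83.2, 90.2 and 111 CPM in male chow and 85.2, 86.3 and 79.0 CPM in male statin. Statin females stood higher than chow females apart from 1 overlapping pair, and the male groups overlapped. The log2 fold change was 0.48 (SE 0.17, 95% interval 0.10 to 0.86, adjusted p = 0.348) in females and -0.18 (SE 0.17, -0.56 to 0.20) in males, and their difference was 0.66 (SE 0.25, adjusted p = 0.490). Neither the female change nor the difference passed the test. F12, the contact factor that activates F11, read 531, 433 and 496 CPM in chow females and 416, 586 and 485 CPM in statin females. It read 452, 470 and 561 CPM in male chow and 539, 409 and 395 CPM in male statin. Its statin and chow groups overlapped in both sexes, with fold changes of 0.03 (-0.35 to 0.40) in females and -0.14 (-0.52 to 0.23) in males.

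The 3 fibrinogen chains assemble into 1 secreted hexamer. Fga read 8348, 5854 and 4863 CPM in chow females, and 3970, 5993 and 6065 CPM in statin females. Fgb read 6492, 5095 and 4203 CPM in chow females, and 3522, 5624 and 5426 CPM in statin females. Fgg read 5768, 5379 and 4099 CPM in chow females, and 3808, 3924 and 4876 CPM in statin females. For each chain female chow liver 1 was the highest and female statin liver 1 the lowest of the females. Among the other females, the statin livers lay above the chow livers for Fga and Fgb, and the groups overlapped for Fgg. The log2 fold changes in females were -0.25 (-0.73 to 0.23) for Fga, -0.12 (-0.58 to 0.35) for Fgb and -0.27 (-0.64 to 0.09) for Fgg, with adjusted p of 0.828, 0.956 and 0.671. With 1 liver left out, that of Fga ranged from -0.405 to 0.0041 and that of Fgb from -0.25 to 0.076, so neither kept its sign throughout. In males Fga read 3940, 3606 and 4255 CPM on chow and 4592, 4338 and 3590 CPM on statin. Fgb read 3686, 3211 and 4158 CPM in male chow and 4069, 3595 and 3199 CPM in male statin. Fgg read 3312, 2718 and 3055 CPM in male chow and 2961, 3378 and 2955 CPM in male statin. The male groups overlapped for every chain, with fold changes of 0.09, -0.03 and 0.03 for Fga, Fgb and Fgg.

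**Figure D2:**
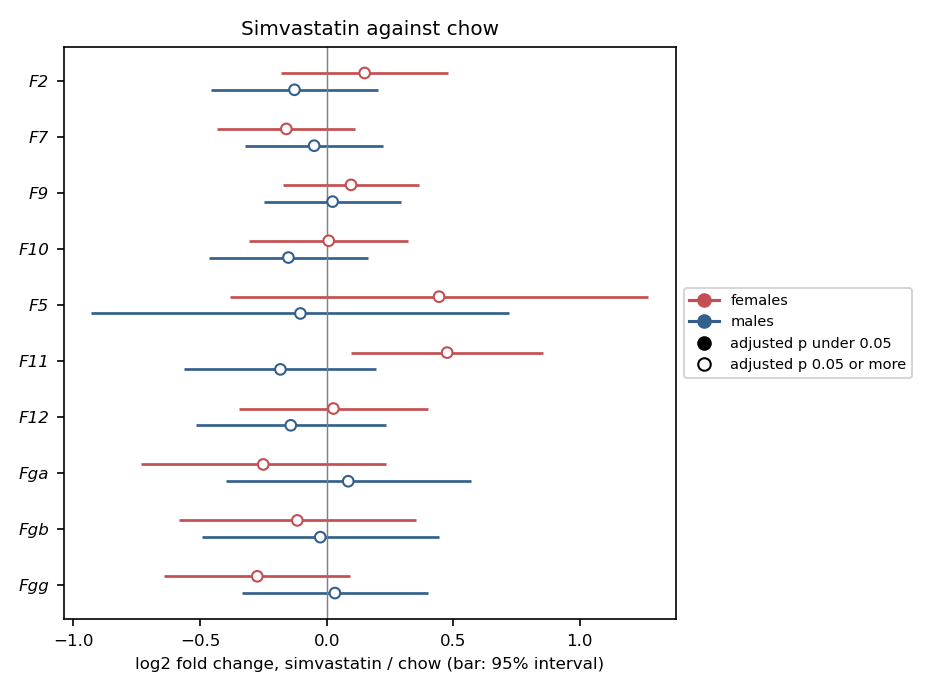
Log2 fold change of each gene (rows) with simvastatin against chow in females (red) and males (blue), with the 95% interval of the edgeR fit as a line. All 20 points are open because no adjusted p was under 0.05, and the female F11 interval (0.10 to 0.86) is the only one that leaves out 0.

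The second question was whether the sexes differed, first on chow and then, in the other 6 livers, on statin. Of the 10 genes 2 were called higher in chow females than in chow males, Fgg and F7, and 0 lower, against 10.4% of all genes tested called in either direction and 5.96% called higher. On statin 1 was called higher, F10, and 0 lower, against 6.28% in either direction and 4.38% higher. The chow and statin livers are different animals, but the chow livers are also the controls of the statin comparisons above. In a comparison of all 6 females with all 6 males, added after these results were seen, 4 were called higher (F7, F10, Fga and Fgg) and 0 lower, against 18.1% in either direction and 11.2% higher. The split of all called genes into higher and lower depends on scaling: it was 713 and 537 on chow, 524 and 227 on statin and 1343 and 827 over both diets with TMM, and 565 and 653, 356 and 327, and 1077 and 1322 with library sizes alone. The fold changes of F7, F10, Fga, Fgb and Fgg stayed positive under every scaling.

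Fgg was 1.68 times higher in chow females (log2 fold change 0.75, SE 0.17, adjusted p = 0.0158), with 3 of 3 female livers above all male livers. On statin it was 1.36 times higher (0.44, SE 0.17, adjusted p = 0.164), again with no overlap. Over both diets the difference of Fgg was 0.59 (SE 0.12, adjusted p = 0.00483), and the lowest female liver at 3808 CPM stood above the highest male liver at 3378 CPM. Leaving out any 1 of female chow livers 1 and 2 or male chow livers 2 and 3 took the chow call away (adjusted p between 0.0554 and 0.0694), and the comparison over both diets was called under all 21 alternatives. Fga was 1.62 times higher in chow females (0.69, SE 0.22, adjusted p = 0.0697) and 1.28 times on statin (0.36, SE 0.22, adjusted p = 0.441). Its difference over both diets, 0.52 (SE 0.16, adjusted p = 0.0373), was called under 9 of 21 alternatives and was lost with the length offset (0.51, adjusted p = 0.0593), with limma (0.50, adjusted p = 0.0542), with the block (0.52, adjusted p = 0.0702) and without any 1 of 9 livers, to 0.39 (adjusted p = 0.0884) without female chow liver 1, the highest. Fgb gave 0.51 (adjusted p = 0.158) on chow, 0.42 (adjusted p = 0.318) on statin and 0.47 (adjusted p = 0.0515) over both diets. Some alternatives called what the test did not: 4 of 21 for Fgb over both diets, 5 for Fga and 2 for F10 on chow, and 2 for F7 on statin. Without female chow liver 1 the chow difference was 0.44 for Fga and 0.33 for Fgb, the lowest with any 1 liver left out.

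F7 was 1.42 times higher in chow females (0.51, SE 0.13, adjusted p = 0.0232) and 1.32 times on statin (0.40, SE 0.13, adjusted p = 0.0868). The groups did not overlap on either diet, and over both diets the difference was 0.45 (SE 0.09, adjusted p = 0.00397), with 119 CPM in the lowest female liver and 114 CPM in the highest male liver. The chow call was lost without any 1 of female chow livers 1 and 3 or male chow livers 1 and 2 (adjusted p between 0.0652 and 0.0983), with the replicate number as a block (0.51, adjusted p = 0.0521), with no filter on low counts (0.49, adjusted p = 0.0830) and with the offset for transcript length (0.49, adjusted p = 0.0785), so that the difference kept its size in these 3. F10 was 1.36 times higher in chow females (0.45, SE 0.14, adjusted p = 0.0710) and 1.52 times on statin (0.61, SE 0.145, adjusted p = 0.0276). The statin call was lost without female statin liver 3 or any 1 male statin liver (adjusted p between 0.0601 and 0.101), with no filter on low counts (0.58, adjusted p = 0.0623) and with the statin groups fitted alone (0.60, adjusted p = 0.124), where the difference kept its size. Over both diets F10 differed by 0.53 (SE 0.10, adjusted p = 0.00393), with 534 CPM in the lowest female and 503 CPM in the highest male liver. Over both diets F7 and F10 kept an adjusted p under 0.05 in all 21 alternatives. The levels of the neighbours F7 and F10 correlated at r = 0.95 over the 12 livers and at 0.87 as deviations from group means, where F2, on another chromosome, correlated with F7 at 0.93 and with F10 at 0.87.

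**Figure D3:**
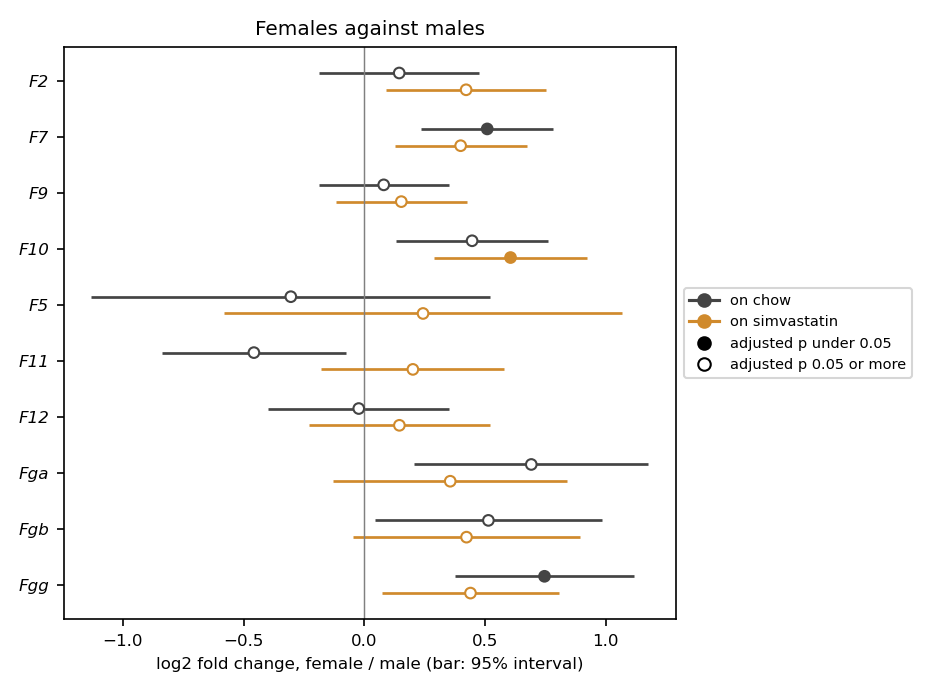
Log2 fold change of each gene (rows) in females against males on chow (grey) and on simvastatin (orange), with the 95% interval as a line. Filled points, with an adjusted p under 0.05, are F7 and Fgg on chow and F10 on simvastatin, and all 10 orange points lie above 0.

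F2, F5, F9, F11 and F12 did not pass the test in any of these comparisons. Among the alternatives F2 was called under 1 of 21 on statin (DESeq2, adjusted p = 0.0418) and 3 of 21 over both diets (lowest adjusted p 0.0285, and 0.0463 without female statin liver 1). F2 gave 0.145 (adjusted p = 0.617) on chow and 0.42 (adjusted p = 0.137) on statin, where the female livers stood above the male ones, and 0.28 (adjusted p = 0.0905) over both diets. F9, which is X-linked, gave 0.08 (-0.19 to 0.35, adjusted p = 0.745) on chow and 0.15 (-0.12 to 0.42, adjusted p = 0.581) on statin, so that the chow interval leaves out a female level above 1.28 times the male one. F11 was the single gene with all chow females below all chow males, at -0.46 (SE 0.17, adjusted p = 0.122), and gave 0.20 (adjusted p = 0.612) on statin. F12 gave -0.02 and 0.15, and F5 gave -0.30 and 0.24, with wide overlap. In all, 6 of 10 genes were wholly above and 1 wholly below in chow females, where 37.7% of all genes did not overlap. On statin 4 of 10 (F2, F7, F10 and Fgg) were wholly above, against 19.6%, and over both diets 3 of 10 (F7, F10 and Fgg), against 8.79%. The median log2 difference of the 10 was 0.30 on chow and 0.38 on statin, beside -0.0094 and -0.012 over all genes.

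Together the fibrinogen chains took between 1.32% and 2.06% of normalized reads in female chow and between 1.13% and 1.64% in female statin. They took between 0.954% and 1.15% in male chow and between 0.974% and 1.16% in male statin. The female chow livers stood above all male livers, and female statin liver 1 fell within the male range. Per kilobase the share of Fga in the 3 chains lay between 32.5% and 38.3%, that of Fgb between 22.8% and 27.6% and that of Fgg between 35.1% and 44.8%. Female statin liver 1 had the largest Fgg share and female statin liver 2 the smallest. Deviations of Fga and Fgb from their group means correlated at r = 0.97 over the 12 livers, those of Fga and Fgg at 0.70 and those of Fgb and Fgg at 0.64, and the livers share depth and length trend.

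**Figure D4:**
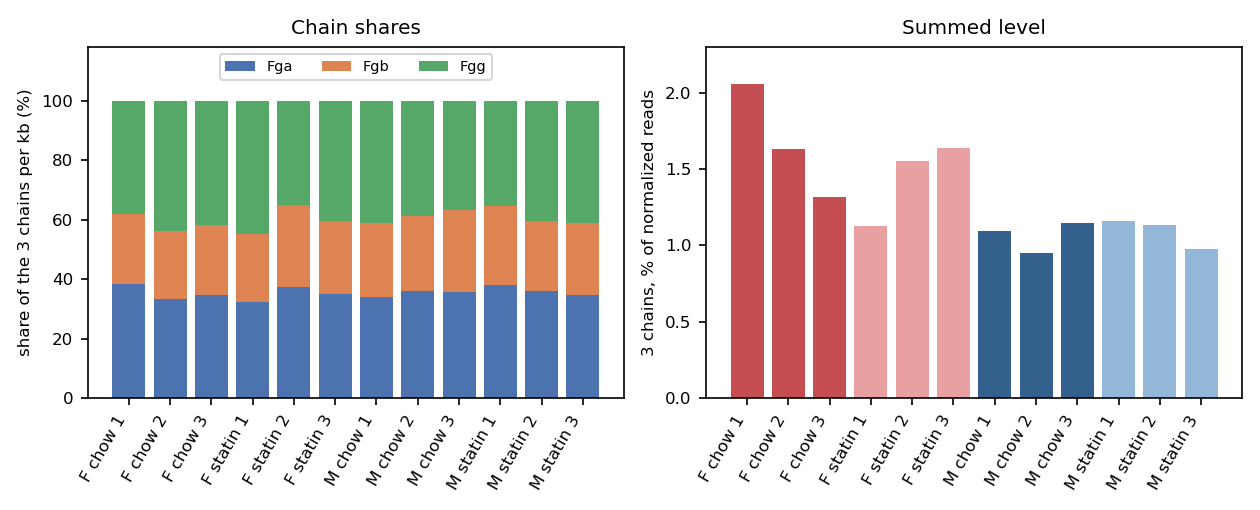
Left, share of each fibrinogen chain in the sum of the 3 per kilobase of exon (%, each bar 1 liver). Right, the 3 chains together as % of normalized reads in each liver, where female chow liver 1 is highest at 2.06% and male chow liver 2 lowest at 0.954%.

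Genes that act beside the cascade were read from lists. By edgeR none of 12 tested other procoagulant genes, 11 anticoagulant genes, 7 genes of fibrinolysis and 6 of the vitamin K cycle was called with statin in either sex. At an unadjusted p under 0.05 these lists had 1, 2, 1 and 2 genes in females and 0, 1, 0 and 0 in males, beside the 1256 and 234 of all 11968 genes. The gene of fibrinolysis was Anxa2, a cell-surface receptor for plasminogen, which read from 15.6 to 17.6 CPM in chow females and from 10.5 to 11.8 CPM in statin females. These groups did not overlap, the log2 fold change was -0.59 (SE 0.12, adjusted p = 0.0968), and 1 of 21 alternatives called it. Among all 11968 genes tested, 1437 did not overlap in this comparison. Klkb1 and Calu, described below, were also among them. Between the sexes over both diets 3 of the 12 procoagulant genes were called higher in females (2 to 5 under the alternatives) and 1 lower, against 11.2% of all genes called higher, with a list median of 0.23. The lower one was Klkb1, the plasma prekallikrein that factor XII activates, at -0.57 (adjusted p = 0.00450) over both diets, -0.83 (SE 0.16, adjusted p = 0.00613) on chow and -0.30 (adjusted p = 0.344) on statin, where it was not called. On chow its levels were 88.1, 94.0 and 105 CPM in chow females and 162, 169 and 180 CPM in chow males, with no overlap. In statin females it read 112, 136 and 134 CPM, above all chow females, and in statin males 199, 138 and 135 CPM. The female statin change of Klkb1 was 0.42 (SE 0.16, adjusted p = 0.371) and was not called. It was the procoagulant gene with an unadjusted p under 0.05 in females. Kng2, a kininogen of the same contact system, was called higher on statin (0.64, SE 0.13, adjusted p = 0.0134) and over both diets (0.52, adjusted p = 0.00244). Mcfd2, part of the cargo receptor for factors V and VIII (0.57), and Hgfac, the activator of hepatocyte growth factor (0.41), were called over both diets but not on either diet alone. The procoagulant list is thus broad, and these 2 of its called genes are not clotting factors themselves.

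Of the anticoagulant genes 1 was called higher and 1 lower over both diets, with a list median of 0.035, and 2 of 11 called is about the 18.1% of all genes. Serpinc1, antithrombin, gave 0.31 (SE 0.09, adjusted p = 0.0323), called under 11 of 21 alternatives, and Serpine2, a thrombin-inhibiting serpin at low level here, gave -2.00 (SE 0.26, adjusted p = 0.000296). In fibrinolysis 3 of 7 were called higher over both diets and 0 lower. Anxa2 gave 0.66 (SE 0.09, adjusted p = 0.000246), Plau, urokinase, 0.64 (called under 15 of 20 alternatives), and Cpb2, the thrombin-activated fibrinolysis inhibitor, 0.30 (8 of 21). In the vitamin K cycle Calu, a calumenin that inhibits the carboxylase, was called higher in chow females (0.68, SE 0.16, adjusted p = 0.0192), a call lost without male chow liver 1 (0.62, adjusted p = 0.0867), and over both diets (0.43, adjusted p = 0.0202, 17 of 21 alternatives), the single call among the 6, and 0 of 6 were called on statin. Calu read 168, 152 and 136 CPM in chow females and 98.8, 127 and 91.5 CPM in statin females. These groups did not overlap, and Calu was not called with statin. The part of the female statin shifts in the chow sex calls of Calu and Klkb1 was not tested.

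Acute-phase genes were also compared between the sexes. Of 16 acute-phase genes 7 were called higher in females on chow, 8 on statin and 12 over both diets, against 5.96%, 4.38% and 11.2% of all genes, and 0 were called lower, with a list median of 0.92 over both diets. The counts ranged from 6 to 8 on chow, 5 to 12 on statin and 10 to 13 over both diets under the alternatives. The neutrophil lipocalin Lcn2 read 289, 277 and 155 CPM in chow females and 136, 167 and 248 CPM in statin females, against 6.34 to 19.5 CPM in the 6 males, and differed by 4.13 (SE 0.26, adjusted p = 4.4e-07). Orm2, an orosomucoid, differed by 3.35, the serum amyloid genes Saa1 and Saa2 by 4.22 and 5.07, and the haem binder Hpx by 1.09 on statin. Saa1 and Saa2 are near-identical copies, as are the orosomucoid genes, so reads may be split between them or left uncounted. With statin edgeR and every alternative called 0 of the 16 in either sex, with 0 in females and 1 in males at an unadjusted p under 0.05. Of 16 hepatic regulators 2 were called higher and 2 lower over both diets, with a median of -0.039, so that 4 of 16 were called against 18.1% of all genes. Stat3, the transcription factor of interleukin-6 signalling, differed by 0.72 (SE 0.19, adjusted p = 0.0212) over both diets and by 0.66 (adjusted p = 0.0584) without male chow liver 1. Socs3, its feedback inhibitor, differed by 1.80 (adjusted p = 0.0266) on chow but lost the call without female chow liver 2 (1.24, adjusted p = 0.125). The regulators Nr0b2 and Foxa1 were called lower in females on both diets (Nr0b2 -1.05 and -2.11, Foxa1 -0.54 and -0.66). Their chow calls were lost without male chow liver 3 for Nr0b2 (-0.75, adjusted p = 0.194) and without male chow liver 2 for Foxa1 (-0.43, adjusted p = 0.146), among others. Nr1i2, the pregnane X receptor, was 0.33 higher over both diets, called under 10 of 21 alternatives.

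Among markers of other liver cells, those of Kupffer and stellate cells were mostly called higher in females over both diets, where 11.2% of all genes were. Of 10 Kupffer cell markers 5 were called higher in chow females, 7 in statin females and 9 over both diets (1 to 8, 4 to 9 and 8 to 9 under the alternatives), and their summed level lay between 752 and 892 CPM in chow females, 651 and 1008 CPM in statin females, 380 and 599 CPM in chow males and 388 and 479 CPM in statin males. None of the 10 was at 0 in any liver, and the resident macrophage markers Vsig4 and Clec4f differed by 1.10 and 1.04 over both diets. Of 8 stellate cell markers 6 were called higher over both diets (Dcn by 0.62), of 10 endothelial markers 2 (Lyve1 by 0.91), and of 2 tested platelet markers 1, Itgb3, by 1.54. Stellate sums lay between 547 and 618 CPM in chow females, 467 and 672 CPM in statin females, 362 and 397 CPM in chow males and 342 and 456 CPM in statin males. Of 7 tested hepatocyte markers 1, Alb, was called higher over both diets, by 0.56 (9 of 21 alternatives), and 1, Apoa1, lower on chow, by -0.81. Among 13 tested genes for secreted hepatocyte proteins, which include Alb, Apoa1 and other markers just counted, 2 were called higher over both diets (Ambp and again Alb) and 1 lower (Rbp4), with a median of 0.15. Of 2 tested lymphocyte markers 1 was called higher over both diets (Ptprc, by 0.75), of 3 cholangiocyte markers 0, and of 5 erythrocyte markers 1 lower (Alas2, by -2.42). The other 4 erythrocyte markers, all globin genes, differed the other way without a call, and the list median was 0.45. The part of the acute-phase state and of these cells in the fibrinogen, F7 and F10 differences was not tested.

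**Figure D5:**
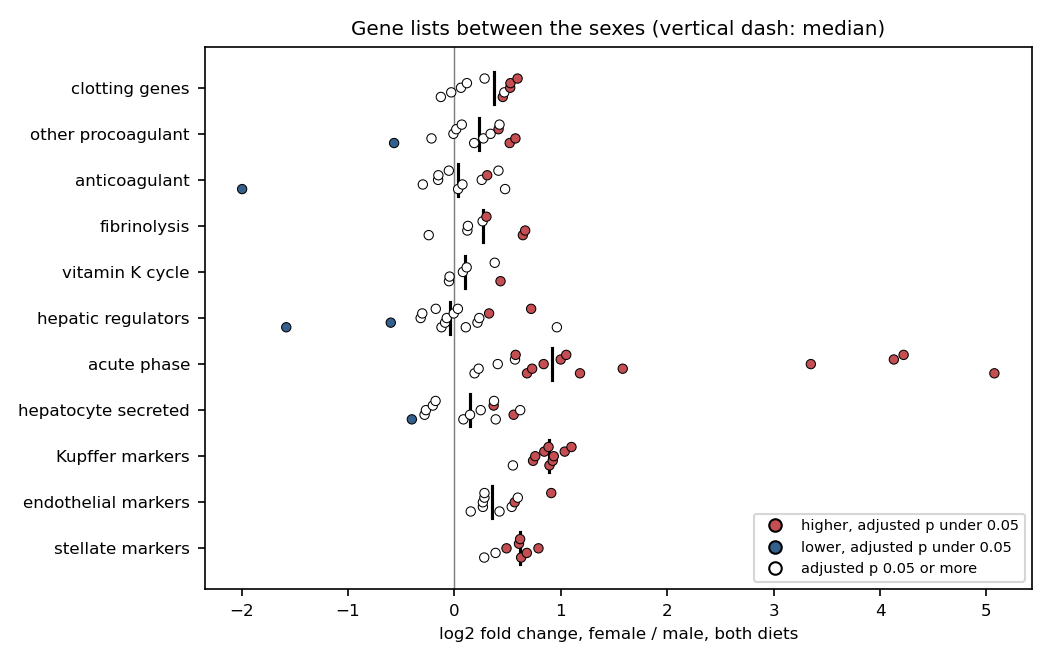
Log2 difference of every tested gene (points) in the 10 clotting genes and 10 other lists (rows), all 6 females against all 6 males, with the list median as a dash. Red points are called higher and blue points lower at an adjusted p under 0.05; the acute-phase and Kupffer rows lie to the right of 0, with medians of 0.92 and 0.89, and the clotting genes have a median of 0.37.

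Among 7641 genes whose mean level reached 10 CPM, those whose log2 levels followed the mean of the fibrinogen chains most closely over the 12 livers were Nedd4l (r = 0.956), Slc3a1 (0.932), Stat3 (0.930), Esam (0.925) and Tacc2 (0.923). Those most like the mean of the other 7 clotting genes were Agt (0.947), Itih2 (0.946), Gc (0.944), Pfkl (0.937) and Itih1 (0.934). As deviations from group means the first 5 had r between 0.775 (Tacc2) and 0.938 (Nedd4l), and the second 5 between 0.920 (Agt) and 0.952 (Gc). These values are descriptions, since the livers share the sex difference, depth and length trend.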

How the data were processed

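The authors selected poly(A) RNA from liver, sequenced it, and aligned and counted the reads on GRCm38 genes. The submitters' processing notes name STAR 2.4.1a, HTSeq and edgeR 3.28.1. The authors deposited a table of CPM (48526 rows) and a filtered table of read counts (11968 genes above 1 CPM in at least 6 livers), named as normalized. Its values were whole and 0 differed from the reads recovered from CPM (100% of nonzero values within 0.05 reads of a whole number), so it was analysed as counts. Depth is given in the report. The floor of 3 counts was between 0.0497 and 0.0651 CPM and covers counting error only.

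All genes were fitted with edgeR 4.0.16 (quasi-likelihood test, TMM factors 0.924 to 1.05, common dispersion 0.0380, prior degrees of freedom 4.14) in R 4.3.3, with the 4 groups in 1 fit and no covariate. Tests were two-sided with Benjamini-Hochberg adjustment over all genes tested, and called at 0.05. SE is the absolute log2 fold change over the square root of F, and 95% intervals use the t distribution with residual plus prior degrees of freedom. Gene lengths and positions come from GENCODE vM21, which may differ from the authors' release. Alternatives were DESeq2 1.42.0, limma 3.58.1 on log2(CPM + 1), DESeq2 size factors, library size alone, no filter and a filter at 10 CPM, the replicate number as a block, each comparison's groups alone, a length offset, and leaving out each liver. Tables and plots were made in Python 3.11.15 (pandas 2.3.3, numpy 2.4.6, matplotlib 3.10.9, scipy 1.17.1).

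The members and gene lists were chosen with earlier results of these data known. Named genes are all 10 members, up to 4 called genes of each list and comparison, the 5 most alike genes, and the highest marker of each cell type; not every listed gene that qualifies is given. In fibrinolysis 1 gene of the planned list is not reported here.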

Additional observations from a re-analysis of the deposited data

How the results depend on the processing

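With 3 livers a group, statin shifts within the printed intervals are not excluded, and the intervals are no limit of detection. That of F11 in females left out 0 and the gene was still not called. The lowest value of any member, 55.2 CPM (F11), stood far above the floor of 0.0651 CPM. Library size alone turned the female statin change of F10 to -0.032 and of F12 to -0.013, and the sex difference of F12 over both diets to -0.0030. With no filter on low counts the female statin change of F10 was -0.0013, and with the stricter filter F12 was 0.027 on chow between the sexes and F5 was 0.019 over both diets. None of these values passed the test in either direction.

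With 12 genes of all tested called for statin in females, DESeq2 called 270, no filter 148, the stricter filter 2 and the fit of that comparison's groups 0. DESeq2 called 4 genes with statin in males and 130 for the difference of the responses, where no filter gave 103. The fewest and most with 1 liver left out were 0 and 75 for statin in females and 0 and 14 for the difference of the responses. Between the sexes on chow the count of the 10 members called was 4 with DESeq2, 1 with no filter, 4 with the stricter filter and 1 with the length offset, and 0 to 3 with 1 liver left out. That of all genes was 1946 with DESeq2, 771 with the stricter filter and 2151 with the chow groups alone, and 635 to 1586 with 1 liver left out. On statin the members called were 3 with DESeq2, 0 with no filter, 2 with the stricter filter and 0 with the statin groups alone, and 0 to 1 with 1 liver left out. Of all genes on statin DESeq2 called 1284, the stricter filter 356 and the statin groups alone 292, and 378 to 743 were called with 1 liver left out. Over both diets the stricter filter called 1062 genes. Over the 9 alternatives that leave out no single liver, all-gene counts ranged from 771 to 2151 on chow and from 292 to 1284 on statin. Over both diets they ranged from 1062 to 2825. The member counts move with these and are no result about the members. The cause of these shifts was not tested, beyond the fewer genes or livers that the filters and omissions leave.

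With 1 liver left out, the female statin change ranged from -0.075 to 0.079 for F10, -0.11 to 0.15 for F12, -0.405 to 0.0041 for Fga, -0.25 to 0.076 for Fgb, 0.055 to 0.77 for F5 and -0.40 to -0.17 for Fgg. In males it ranged from -0.53 to 0.13 for F5, -0.13 to 0.021 for F7, -0.0001 to 0.055 for F9, -0.12 to 0.071 for Fgb and -0.039 to 0.10 for Fgg. The difference of the responses ranged from -0.0072 to 0.18 for F9 and -0.23 to 0.095 for Fgb. Between the sexes F12 ranged from -0.097 to 0.078 on chow, -0.0064 to 0.30 on statin and -0.017 to 0.14 over both diets, and F5 from -0.15 to 0.67 on statin and -0.23 to 0.18 over both diets.

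Replicate numbers name different mice, and same-numbered livers did not deviate together (mean r = -0.109 over 18 pairs, against 0.0577 over 36 pairs of different numbers). Taking the replicate number as a block, 5 genes were called for statin in females, 1 member between the sexes on chow, 1 on statin and 3 over both diets. The block is among the 9 alternatives whose all-gene ranges are given above, and these member counts are read beside those ranges.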
